A study of Mus musculus with 2 samples.

Results

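Genes of fat cells and their secreted products were examined in gastrocnemius (GAS) muscle, a hindlimb muscle, of skeletal muscle-specific *Gde5* knockout (*Gde5* skKO) and wild-type (WT) mice. The set held 10 genes, *Adipoq*, *Retn*, *Cfd*, *Lep*, *Plin1*, *Cidec*, *Cidea*, *Fabp4*, *Car3* and *Pparg*, out of 27570 gene names on the array. They were found by gene name among the spots that are not controls, with *Plin1* carrying its older name Plin there. All 10 genes were on the array, as 14 probes in 32 spots.

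*Gde5*, whose current symbol is *Gpcpd1*, encodes an enzyme that cleaves glycerophosphocholine into choline and glycerol 3-phosphate. Both genotypes were male, 15 weeks old and on a normal diet, and the total RNA came from GAS muscle. The *Gde5* skKO mice carried floxed *Gde5* alleles and a Cre transgene under the human α-skeletal actin (HSA) promoter, which is active in skeletal muscle fibres, so that fat cells of the same muscle were not the target of the deletion. For the contractile, glucose and fasting tests the methods name littermates with the floxed alleles and no Cre as controls, and for the arrays they name the controls only as WT. The study describes array comparisons after a glucose injection and under fasting, whereas the labels of these arrays name neither, so that the feeding state of these mice is unclear. The design text gives 5 WT and *Gde5* skKO mice, without saying if samples were combined or if the second hybridization repeated the RNA of the first.

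Each of the 2 arrays held both genotypes in different dyes, WT in Cy3 and *Gde5* skKO in Cy5 on array 1 and the reverse on array 2. All ratios are log2 ratios of *Gde5* skKO over WT, so that a value below 0 is lower in *Gde5* skKO muscle. The error after a ratio on 1 array is that of the scanner software, Agilent Feature Extraction, for that spot. A gene was called where both arrays gave a software p-value under 0.05 and a ratio of the same direction. This p-value covers the error within an array and not the spread between mice, and if both arrays held the same RNA the agreement between them is technical only.

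Fat cells store triglyceride in a single large droplet coated by proteins of the perilipin and CIDE families, and fatty acid-binding proteins carry the fatty acids within the cell. They also secrete hormones and other proteins, the adipokines, among them adiponectin (*Adipoq*), leptin (*Lep*), resistin (*Retn*) and adipsin (*Cfd*). The nuclear receptor PPARγ (*Pparg*) drives fat cell formation together with the C/EBP family. In muscle, fat cells lie between the fibre bundles and around the vessels, and some genes of the set are not theirs alone: *Fabp4* is also made by capillary endothelium and macrophages, and *Car3* is abundant in slow muscle fibres.

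The labelled tissue was checked first. All 7 muscle fibre markers (*Ckm*, *Acta1*, *Myh4*, *Tnnt3*, *Mb*, *Atp2a1* and *Pvalb*) were well above background, and none was called. For the targeted gene, 3 of the 4 *Gpcpd1* probes had ratios of -2.59 to -3.07 on array 1 and -3.24 to -3.29 on array 2, and the last had -0.05 and -0.47. Between 44.6 and 53.2% of spots were well above background per genotype and array. The median ratio over the 13571 genes measured was 0.01 on array 1 and 0.02 on array 2. Of the genes of the set, 9 were measured, *Cidea* and *Car3* among them, and *Lep* was not.

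Promoter sequences were searched for 7 of the 10 genes, from RefSeq on GRCm38.p6, as 10 windows of the 250 bases before an annotated transcript start. *Fabp4* and *Car3* were not matched, and windows of the chromosome that holds *Cidea* were left out, so that *Cidea* was not searched. The windows were searched on both strands for the TATA box (TATAAA), the CCAAT box (CCAAT), the C/EBP site (TTGCNNAA), a nuclear receptor half-site (AGGTCA) and its direct repeat with a 1-base spacer (AGGTCANAGGTCA, up to 2 mismatches). The share of 32851 windows of that length that held each was 12.4% for the TATA box, 33.8% for the CCAAT box, 9.56% for the C/EBP site, 14.0% for the half-site and 3.24% for the repeat. Of the genes called lower, the windows of *Adipoq*, *Plin1* and *Cidec* are shown because they held a match, beside a window of *Pparg*, whose product acts in the same cells and whose ratio was near 0. Capitals mark CCAAT box or C/EBP site matches on either strand.
Adipoq, chr16:23146286-23146535, + strand: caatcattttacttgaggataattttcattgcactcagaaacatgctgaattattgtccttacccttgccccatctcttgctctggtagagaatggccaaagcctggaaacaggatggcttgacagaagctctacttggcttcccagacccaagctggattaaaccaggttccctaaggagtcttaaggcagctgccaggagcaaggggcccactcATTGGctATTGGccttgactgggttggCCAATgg
Plin1, chr7:79732777-79733026, - strand: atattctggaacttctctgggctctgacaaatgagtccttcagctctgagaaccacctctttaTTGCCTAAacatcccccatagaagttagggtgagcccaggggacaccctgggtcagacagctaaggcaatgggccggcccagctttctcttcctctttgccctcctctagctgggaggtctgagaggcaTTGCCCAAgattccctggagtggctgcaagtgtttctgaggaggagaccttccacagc
Cidec, chr6:113434765-113435014, - strand: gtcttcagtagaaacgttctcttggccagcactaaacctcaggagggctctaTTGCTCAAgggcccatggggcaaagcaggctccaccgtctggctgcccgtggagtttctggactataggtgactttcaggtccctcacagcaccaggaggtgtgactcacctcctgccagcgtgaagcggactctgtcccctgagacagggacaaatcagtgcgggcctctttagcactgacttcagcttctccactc
Pparg, chr6:115421816-115422065, + strand: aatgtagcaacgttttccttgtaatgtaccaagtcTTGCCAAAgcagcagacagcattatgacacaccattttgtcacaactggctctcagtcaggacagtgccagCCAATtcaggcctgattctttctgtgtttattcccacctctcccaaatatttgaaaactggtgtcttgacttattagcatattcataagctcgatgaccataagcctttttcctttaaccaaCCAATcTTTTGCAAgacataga

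The *Adipoq* window held 3 CCAAT box matches, starting at positions -34, -27 and -7 from the transcript start, of which the first pair lies on the opposite strand. The *Plin1* window held C/EBP site matches at -187 and -58, and this *Cidec* window held 1 at -198, whereas the other *Cidec* window held no match. The *Pparg* window shown held C/EBP site matches at -215 and -16 and CCAAT boxes at -144 and -22, the C/EBP match at -16 being on the opposite strand. Of the *Pparg* windows not shown, that at chr6:115360894-115361143 held a half-site at -28. The window at chr6:115362099-115362348 held a half-site at -9, and a CCAAT box at -83 and a TATA box at -29 on the opposite strand. The windows of *Retn* and *Cfd* held none of the motifs, *Lep* held 1 C/EBP site at -55, and no window held the direct repeat. The genes called lower thus shared none of these letter patterns across all their windows. These are matches of letters and not sites of binding.

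Of the 9 genes measured, 5 were called lower in *Gde5* skKO muscle (*Adipoq*, *Retn*, *Cfd*, *Plin1* and *Cidec*), where 1.73% of all genes measured were called lower. A further 2 were called higher (*Cidea* and *Car3*), where 1.58% of all genes were called higher. *Fabp4* and *Pparg* were not called. The genes called lower were 1.61 to 2.0-fold lower, and those called higher were 1.70 to 1.91-fold higher. The median of the 9 mean ratios, which pools genes of both directions, was -0.69, against 0.01 over all genes measured. It was -0.33 with limma's ratios, -0.36 with loess and no background correction, -0.40 with no filter on dim probes and -0.45 from array 2 alone. In bulk muscle, fewer fat cells in the samples taken and less RNA of these genes per fat cell cannot be told apart. Since the arrays may share RNA, a difference between the muscle samples cannot be told apart from one of genotype.

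**Figure D1:**
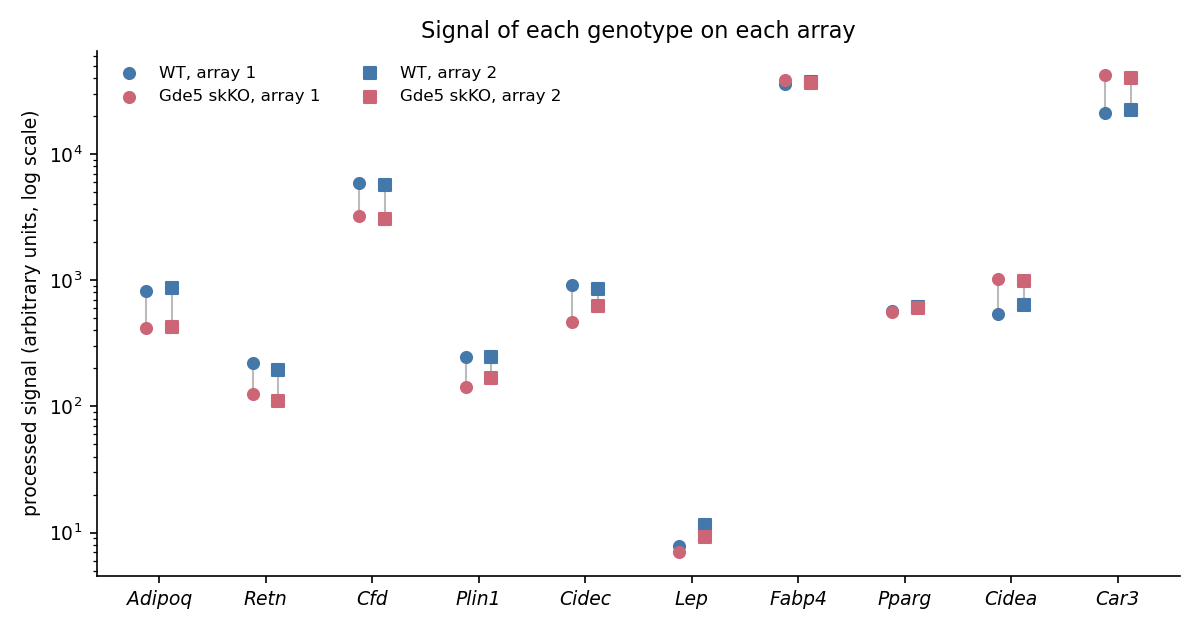
Processed signal (arbitrary units, log scale) of WT and *Gde5* skKO muscle on array 1 (circles) and array 2 (squares) for the probe standing for each gene, each pair of genotypes on an array joined by a line. Signals may be compared within a gene only. *Adipoq*, *Retn*, *Cfd*, *Plin1* and *Cidec* had the lower signal in *Gde5* skKO muscle on each array, *Cidea* and *Car3* were higher, *Fabp4* and *Pparg* lay together, and *Lep* was not well above background.

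Secreted proteins came first. *Adipoq* encodes adiponectin, a hormone made by fat cells that raises insulin sensitivity, and its probe lies at chr16:23072837-23072896 on mm8, the build of the array annotation, which states neither exon nor UTR. The *Adipoq* signal was 824 in WT and 420 in *Gde5* skKO muscle on array 1, and 863 and 423 on array 2. Both WT signals lay above both *Gde5* skKO signals, and the 2 values of each genotype were close to each other. The ratios were -0.97 ± 0.224 and -1.03 ± 0.226, a mean 2.0-fold lower level, with Feature Extraction p-values of 1.42e-05 and 5.33e-06. With limma's background model and loess normalization the *Adipoq* ratio was -0.76 (SE 0.102), with an adjusted p = 0.0186 by limma's moderated test.

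*Cfd* encodes adipsin, the serine protease complement factor D that fat cells release into the blood. Its signal (chr10:79295686-79295745) was 5937 in WT and 3211 in *Gde5* skKO muscle on array 1, and 5715 and 3048 on array 2. The genotypes did not overlap, and the 2 ratios, -0.89 ± 0.220 and -0.91 ± 0.220, differed by 0.02. *Cfd* was 1.86-fold lower in the mean, with Feature Extraction p-values of 5.39e-05 and 3.86e-05. By limma the ratio was -0.82 (SE 0.0985) with an adjusted p = 0.0113. *Adipoq* and *Cfd* were the 2 genes of the set called lower by limma after Benjamini-Hochberg adjustment, which called 0.523% of all genes lower.

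*Retn* encodes resistin, a cysteine-rich hormone of mouse fat cells, and was measured by 2 probes whose listed spans, chr8:3656107-3656928 and chr8:3656145-3656966, overlap. With the brighter probe, the *Retn* signal was 223 in WT and 126 in *Gde5* skKO muscle on array 1, and 196 and 110 on array 2. With the other probe, the signal was 147 and 87.7 on array 1, and 174 and 54.8 on array 2. Both probes gave *Gde5* skKO signals below WT on both arrays, but the arrays were closer with the first probe than with the second. The ratios were -0.82 ± 0.239 and -0.84 ± 0.258 with the brighter probe, 1.78-fold lower in the mean, with Feature Extraction p-values of 0.000559 and 0.00115. With the second probe they were -0.74 and -1.66, 2.30-fold lower in the mean, and the 2 arrays differed by 0.92, the most of any probe measured in the set. Its *Gde5* skKO signal on array 2, 54.8, was near the lowest signal well above background in that channel, 39.7. With the brighter probe the *Retn* ratio was -0.34 by limma, with an adjusted p = 0.320, and -0.37 with loess and no background correction. With the second probe these ratios were -0.36 and -0.44.

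*Lep* encodes leptin, the fat cell hormone that signals the size of the fat stores to the brain. Its probe (chr6:29023244-29023303) was spotted 10 times per array, and none of the spots was well above background in either genotype. The WT signal was 5.61 to 11.8 with a median of 6.85 on array 1, and 8.66 to 15.2 with a median of 11.5 on array 2. The *Gde5* skKO signal was 5.84 to 8.94 with a median of 6.70 on array 1, and 6.82 to 12.3 with a median of 8.77 on array 2. These ranges overlap, and every value lies under the lowest signal that was well above background in its channel, which ran from 21.7 to 39.7. No ratio is therefore given for *Lep*, and a difference was not detectable at this signal.

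Droplet proteins were next. *Plin1* encodes perilipin 1, which coats the lipid droplet of fat cells and guards it against lipases. Its signal (chr7:79594739-79594798) was 248 in WT and 142 in *Gde5* skKO muscle on array 1, and 248 and 167 on array 2. The WT signals were alike and both lay above the *Gde5* skKO signals. The ratios were -0.80 ± 0.230 and -0.57 ± 0.228, 1.61-fold lower in the mean, with Feature Extraction p-values of 0.00049 and 0.0116. By limma the *Plin1* ratio was -0.33, with an adjusted p = 0.301, and it was -0.36 with loess and no background correction.

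*Cidec* encodes a protein, also named FSP27, that joins lipid droplets so that a single large droplet forms. Its signal (chr6:113390476-113390535) was 908 in WT and 467 in *Gde5* skKO muscle on array 1, and 856 and 628 on array 2. The genotypes did not overlap, but the *Gde5* skKO signals lay farther apart than the WT signals. The ratios were -0.96 ± 0.223 and -0.45 ± 0.209, with Feature Extraction p-values of 1.73e-05 and 0.0331, so that the size of the ratio rests on which array is read. The mean was 1.63-fold lower, and by limma the *Cidec* ratio was -0.54 with an adjusted p = 0.0895.

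*Cidea* encodes another CIDE protein, known from brown fat, and went the other way. Its signal was 544 in WT and 1014 in *Gde5* skKO muscle on array 1, and 631 and 980 on array 2. Both *Gde5* skKO signals lay above both WT signals. The ratios were 0.90 ± 0.221 and 0.64 ± 0.214, 1.70-fold higher in the mean, with Feature Extraction p-values of 4.95e-05 and 0.0029. By limma the ratio was 0.58 with an adjusted p = 0.0501. The remaining CIDE gene on the array, *Cideb*, was not well above background. Of 7 brown fat genes measured, none was called and the median ratio was 0.11. The list was not limited to genes of brown fat alone, so this count does not describe brown fat. *Ucp1*, the uncoupling protein that defines brown fat, was not well above background, nor were *Elovl3* and *Otop1*.

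**Figure D2:**
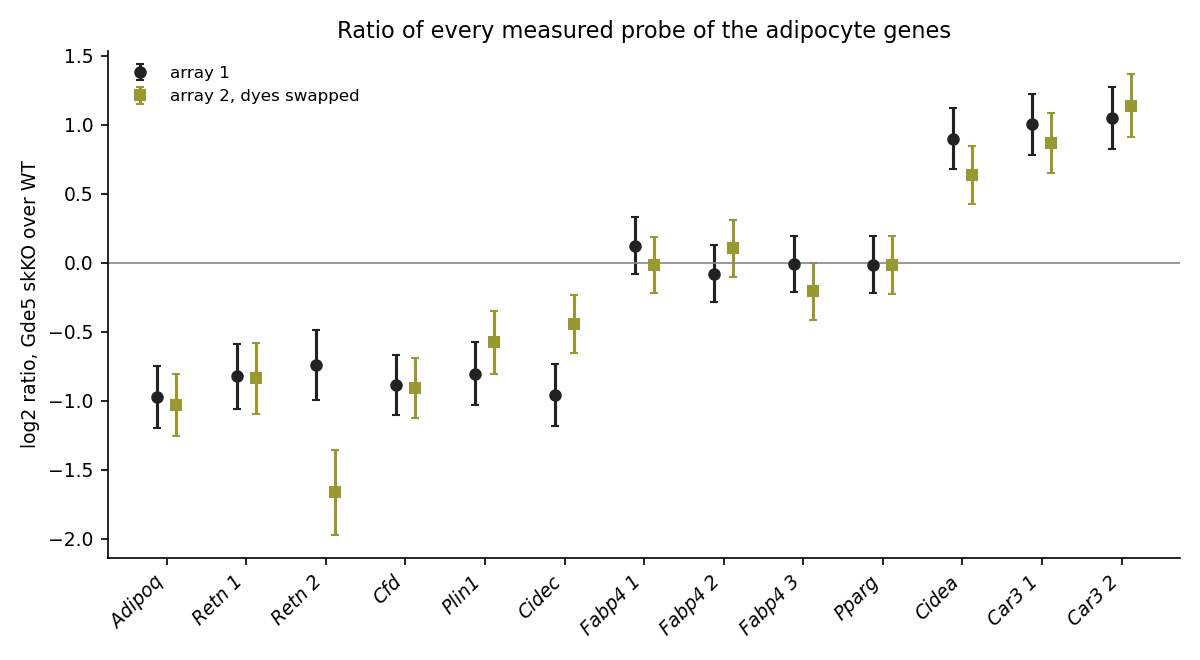
Log2 ratio of *Gde5* skKO over WT on array 1 (black circles) and array 2 (olive squares) for each of the 13 measured probes of the set, with the Feature Extraction error of the ratio as bars. Probes of *Adipoq*, *Retn*, *Cfd*, *Plin1* and *Cidec* lay between -0.45 and -1.66, those of *Fabp4* and *Pparg* between -0.20 and 0.13, and those of *Cidea* and *Car3* between 0.64 and 1.14.

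The genes for fatty acid binding and for the nuclear receptor were not called. *Fabp4* encodes the fatty acid-binding protein of fat cells, also named aP2, and had 3 probes on chromosome 3. With the brightest (chr3:10187065-10187794) the signal was 35638 in WT and 38866 in *Gde5* skKO muscle on array 1, and 37187 and 36769 on array 2. The genotypes overlapped. The ratios were 0.13 ± 0.204 and -0.02 ± 0.204, and their 95% intervals from the software's error ran from -0.28 to 0.53 and from -0.42 to 0.38. The other *Fabp4* probes had mean ratios of 0.01 (chr3:10186983-10187043) and -0.11 (chr3:10190974-10191033). No *Fabp4* probe lay outside -0.20 to 0.13 on either array.

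*Pparg* encodes the receptor that drives fat cell formation, and its probe (chr6:115455814-115455873) was spotted 10 times per array, all spots well above background. The WT signal was 529 to 609 with a median of 565 on array 1, and 538 to 668 with a median of 604 on array 2. The *Gde5* skKO signal was 522 to 618 with a median of 556 on array 1, and 567 to 666 with a median of 592 on array 2. The ranges overlapped on both arrays. The mean ratio was -0.01 on array 1 and -0.02 on array 2, with an SD over the spots of 0.0942 and 0.0797. No *Pparg* spot had a Feature Extraction p-value under 0.05, the lowest being 0.382. The 95% intervals of an average spot, -0.42 to 0.39 on either array, do not reach the mean Feature Extraction ratios of the 5 genes called lower. The limma ratios of *Retn* and *Plin1*, -0.34 and -0.33, lie within them. On array 2 the interval of *Cidec*, -0.86 to -0.04, overlaps that of *Pparg*.

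*Car3* encodes carbonic anhydrase III, a cytosolic enzyme abundant in fat cells, liver and slow muscle fibres, and was measured by 2 probes on chromosome 3. With the brighter probe (chr3:14848525-14848584) the signal was 21232 in WT and 42553 in *Gde5* skKO muscle on array 1, and 22125 and 40332 on array 2. With the other probe (chr3:14841475-14841534) it was 542 and 1121 on array 1, and 532 and 1172 on array 2. In both probes every *Gde5* skKO signal was well over every WT signal. The ratios of the brighter probe were 1.00 ± 0.224 and 0.87 ± 0.219, 1.91-fold higher in the mean, with Feature Extraction p-values of 7.34e-06 and 7.57e-05. The other probe was 2.14-fold higher in the mean. By limma the ratio was 0.96 (SE 0.0983) with an adjusted p = 0.00492, and *Car3* was the 1 gene of the set called higher by limma, which called 0.295% of all genes higher.

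Of 12 slow fibre genes measured, 4 were called higher and 8 were not called, where 1.58% of all genes were called higher. The median ratio was 0.38, and 10 of the 12 were higher on both arrays, where 29.2% of all genes were. The genes called were the slow myosin light chain gene *Myl2* (0.84), the Z-disc protein gene *Csrp3* (0.82), the slow troponin gene *Tnni1* (0.67) and the calcium-binding protein gene *Casq2* (0.67). The slow myosin heavy chain gene *Myh7* was not called, with ratios of 0.30 and 0.36 and Feature Extraction p-values of 0.144 and 0.0851. Its limma adjusted p was 0.289. By qPCR, the study reports fibre-type mRNAs as comparable in both genotypes. The summed signal of the 12 genes was 195231 and 201810 in WT and 265224 and 268790 in *Gde5* skKO muscle. The largest part of that difference came from *Mb*, not called, with 87222 and 91808 in WT and 111937 and 118080 in *Gde5* skKO muscle. The part of slow fibres in the *Car3* ratio was not tested. Among the other carbonic anhydrases, 7 of 14 were measured, and *Car14*, a membrane form, was called higher (0.46 on both arrays). *Car2* had ratios of 0.66 and 0.33, with Feature Extraction p-values of 0.00259 and 0.126, and was not called. The mean ratios of *Car1*, *Car4*, *Car7*, *Car8* and *Car11* were 0.08, -0.03, 0.06, -0.15 and 0.30, and none was called.

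The genes of the set were then placed among all genes measured. By mean ratio, *Adipoq* was number 79 from the lowest of 13571 genes, *Cfd* number 103, *Retn* 127, *Cidec* 189 and *Plin1* 197. *Car3* was number 78 from the highest and *Cidea* number 144. For 214 of the 13571 genes, both arrays gave software p-values under 0.05 in opposite directions, the pattern of a dye effect. The 7 genes called could not be among them, since a call needs the same direction. *Fabp4* and *Pparg* had no p-value under 0.05, so this count does not test a dye effect in the set. The genes that were lower on both arrays, called or not, made up 25.3% of all genes and 6 of the 9 of the set, and those higher on both made up 29.2% and 2 of the 9.

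**Figure D3:**
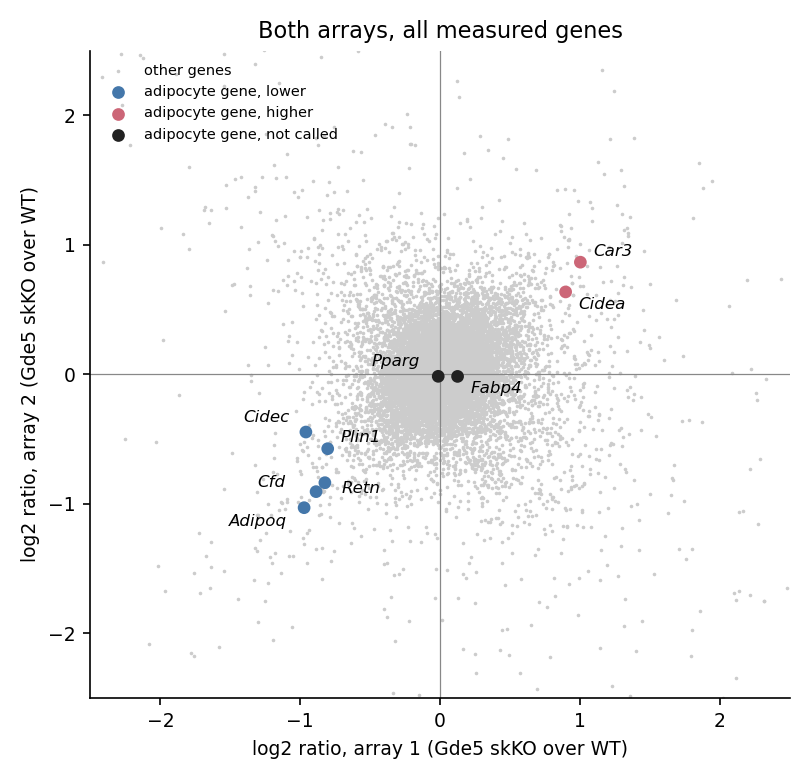
Log2 ratio of *Gde5* skKO over WT on array 1 (x axis) against array 2 (y axis) for the 13571 genes measured, with genes of the set in colour; 40 genes lie outside the axes. The 5 genes called lower (blue) lie in the lower left, *Car3* and *Cidea* (red) in the upper right, and *Pparg* and *Fabp4* (black) in the centre.

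Of 13 other adipokines measured of 17, 3 were called lower, 1 was called higher, and the median ratio was 0.02. Of all genes measured, 1.73% were called lower and 1.58% higher. *Rbp4*, the retinol-binding protein of plasma, had ratios of -1.0 and -0.77 (signal 461 in WT and 231 in *Gde5* skKO muscle on array 1, and 420 and 247 on array 2). *Hp*, which encodes haptoglobin, the binder of free haemoglobin, had ratios of -0.89 and -0.71. *Retnla*, a relative of resistin, had ratios of -0.59 and -0.51. *Angptl4*, an inhibitor of lipoprotein lipase that fatty acids induce through PPARs, had ratios of 1.05 and 0.62. By limma none of these 4 had an adjusted p under 0.05, the lowest being 0.0595 for *Rbp4*. Of adipokine receptors, 5 of 9 were measured and none was called. The adiponectin receptor genes *Adipor1* and *Adipor2* had mean ratios of -0.09 and -0.18, with opposite signs on the 2 arrays, and the leptin receptor gene *Lepr* was not well above background.

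Of the other perilipin genes, 1 was called, in the other direction from *Plin1*. *Plin3*, which coats small droplets in most cells, was called higher, with ratios of 0.91 and 0.86 (signal 4912 in WT and 9202 in *Gde5* skKO muscle on array 1, and 4848 and 8811 on array 2) and a limma adjusted p = 0.0126. The mean ratio of *Plin2* was 0.26, that of *Plin4* 0.04 and that of *Plin5*, the perilipin of oxidative muscle, 0.38, and none of these 3 was called. Of 10 droplet coat genes measured of 11, *Plin3* was the 1 gene called, 6 were higher and 0 lower on both arrays, and the median was 0.12. Among all genes, 1.58% were called higher, and 29.2% were higher and 25.3% lower on both arrays. Within the perilipin family *Plin1* was called lower and *Plin3* higher, and the difference of their mean ratios was not tested.

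Among the genes that make, break down and take up fat, 1 was called, where 3.32% of all genes were called in either direction. Of 17 genes of fatty acid and triglyceride synthesis measured of 20 listed, only *Fasn*, the fatty acid synthase gene, was called (ratios -0.74 and -0.76, signal 7365 in WT and 4394 in *Gde5* skKO muscle on array 1, limma adjusted p = 0.0201), and the median was 0.05. Of 8 lipolysis genes measured of 13, none was called, and the median was 0.17. On both arrays 6 of the 8 were higher, where 29.2% of all genes were. Of 7 genes of fatty acid uptake measured of 8, none was called, and the median was 0.15. *Fabp3*, the fatty acid-binding protein gene of muscle and a relative of *Fabp4*, had a mean ratio of 0.28, and *Fabp5* was not well above background.

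Of 13 transcription factor genes of fat cell formation measured of 14, 1 was called lower, 8 were lower on both arrays, and the median was -0.11. Among all genes measured, 1.73% were called lower, and 25.3% were lower on both arrays. The gene called was *Cebpd*, a C/EBP factor of early fat cell formation, with ratios of -0.84 and -0.89 and a limma adjusted p = 0.0126. Its relatives *Cebpa* and *Cebpb* had mean ratios of -0.09 and -0.04 and were not called. *Ppara*, the PPAR of fatty acid oxidation, had 0.12, and *Ppard* was not well above background. Of 7 genes of fat cell precursors, *Pi16*, a marker of adventitial fibroblasts, was called lower (-0.94 and -0.97, limma adjusted p = 0.0202), and the median was -0.15. Of 13 further fat cell markers measured of 18 listed, none was called, and the median was -0.22. On both arrays 7 were lower and 2 higher, where 25.3% and 29.2% of all genes were. This list was not limited to genes made by fat cells alone.

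**Figure D4:**
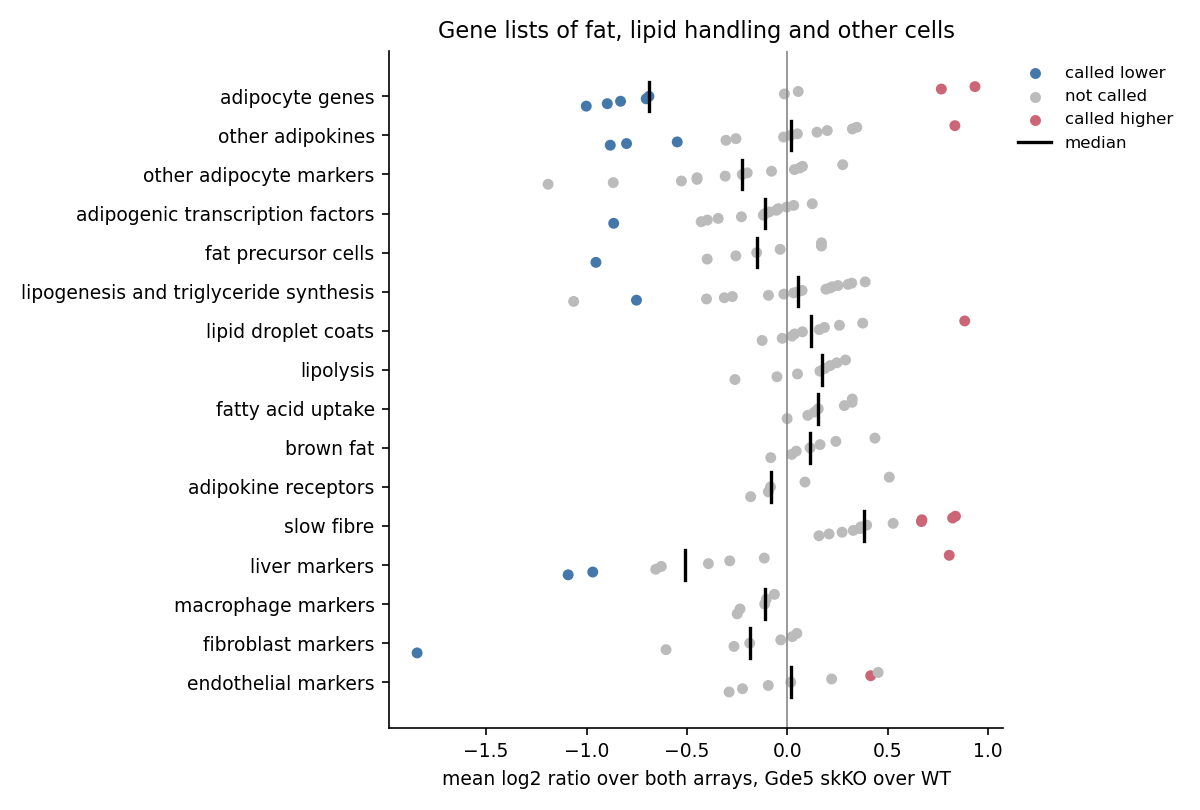
Mean log2 ratio of *Gde5* skKO over WT (x axis) for each measured gene of the set and of 15 other gene lists (y axis), with called genes in blue (lower) or red (higher), genes not called in grey and the median of a list as a black bar. The adipocyte genes had a median of -0.69, liver markers -0.51, slow fibre genes 0.38, and the other lists between -0.22 and 0.17.

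Of 8 liver markers measured of 13 listed, *Ahsg* (-1.09) and *Mup1* (-0.97) were called lower, *Apoh* (0.81) was called higher, and the median was -0.51. These compare with 1.73% of all genes called lower and 1.58% called higher. Their summed signal was 3160 and 3079 in WT and 1942 and 1965 in *Gde5* skKO muscle on arrays 1 and 2, and most of that difference was *Mup1*, with 2031 and 2008 in WT and 1021 and 1042 in *Gde5* skKO muscle. *Alb*, the albumin gene, was measured, with ratios of -1.03 and -0.28, as was the fibrinogen gene *Fgb*, with -0.80 and 0.57, and neither was called. *Apoa1*, *Apoa2*, *Ttr* and *Fga* were not well above background on both arrays. The 7 fibroblast markers had a median of -0.19, with *Mfap4*, a protein of elastic fibres, called lower (-1.84). Their summed signal was 99250 and 90210 in WT against 87810 and 86059 in *Gde5* skKO muscle. Most of that difference was *Dcn*, not called, with 47368 and 36664 in WT and 35910 and 33467 in *Gde5* skKO muscle. The 5 macrophage markers measured of 7 had a median of -0.11 with none called, and a summed signal of 8656 and 8552 in WT against 7948 and 6816 in *Gde5* skKO muscle. The 7 endothelial markers had a median of 0.02, with the VEGF receptor gene *Kdr* called higher (0.42), and a summed signal of 12810 and 13652 in WT against 13395 and 14255 in *Gde5* skKO muscle. The part of these cell types in the ratios of the set was not tested.

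**Figure D5:**
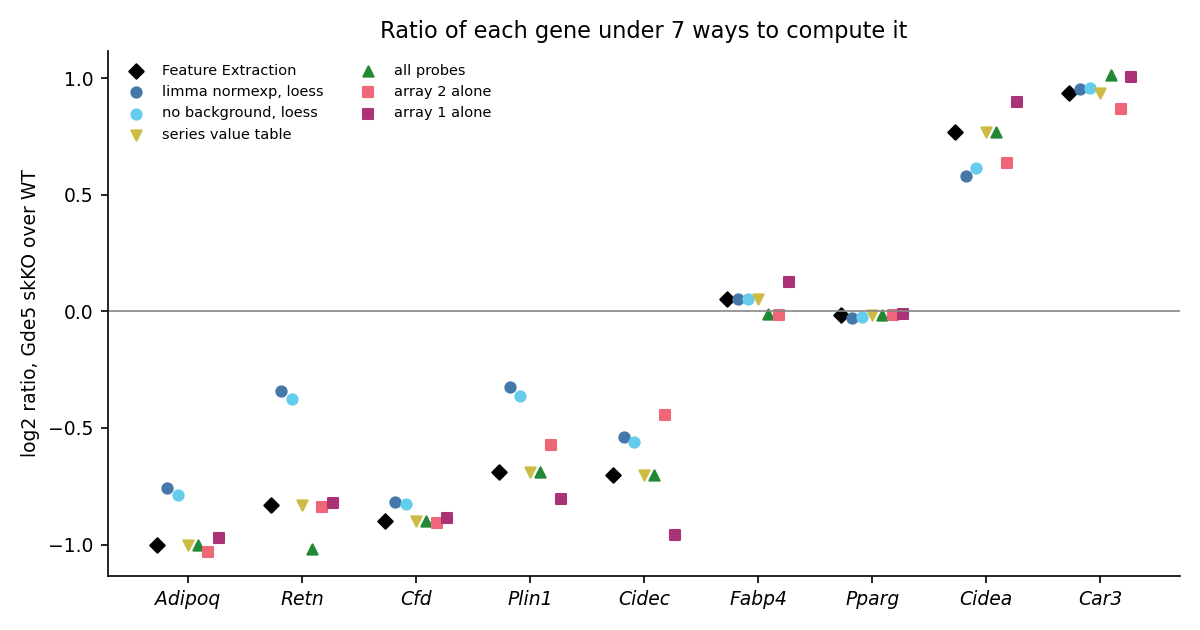
Log2 ratio of *Gde5* skKO over WT (y axis) of each measured gene of the set under 7 ways to compute it, given by symbol and colour. *Car3* stayed between 0.87 and 1.01 and *Cfd* between -0.82 and -0.91, while *Plin1* ranged from -0.33 to -0.80, *Retn* from -0.34 to -1.02 and *Cidec* from -0.45 to -0.96.

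The ratios of *Retn* and *Plin1* were -0.34 and -0.33 with limma's background model and loess, and -0.37 and -0.36 where loess was run on uncorrected signals, against -0.83 and -0.69 with the software's processing. Both alternatives replace the background correction and the dye normalization together, so that the part of each cannot be told apart. *Cfd* and *Car3* were -0.82 and 0.96 with limma's model and loess, against -0.90 and 0.93. The direction of the 7 genes called was the same with limma's ratios, with loess on uncorrected signals and with all probes of a gene averaged.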

How the data were processed

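Total RNA from GAS muscle of *Gde5* skKO and WT mice was hybridized to a pair of two-colour Agilent whole mouse genome arrays, with the dyes swapped on array 2 and both arrays on 1 slide and in 1 scan. The authors processed the scans with Feature Extraction (9.5 in the labels, 9.5.3.1 in the file header), and each deposited file gives a log10 ratio of Cy5 over Cy3 per spot after background subtraction and dye normalization. The deposited files also hold a p-value of that ratio from the software's error model, and the intensity of each spot and its local background in both channels. The series table that the authors deposited holds the same log10 ratio, rounded further.

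From these files the log ratios were turned to log2 of *Gde5* skKO over WT, and the spots of a probe were averaged (median for p-values). Control spots, outlier spots (164 and 200 on arrays 1 and 2) and spots whose local background was over 2 times their signal (11 and 0) were left out. Of 41112 probes, 24323 were named by accession, 6301 by symbol and 2421 by synonym from a RefSeq table, and 8067 kept the array's name. The brightest probe stood for a gene and had to exceed background clearly on each array in 1 channel or both. Coordinates follow the array's own annotation, on mm8. As a second measure, limma 3.58.1 (R 4.3.3) was run on the deposited intensities with normexp (offset 50), loess, and its moderated test with Benjamini-Hochberg adjustment over 13571 genes. With 1 contrast and 2 arrays that may share RNA, this test too measures the spread between arrays and not between mice. The precision is limited by the number of arrays. Scripts were checked on simulated data and used Python 3.11.15. The planted changes were larger than any mean ratio of the set, so the check does not cover changes of that size.

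The genes of the set and the gene lists were chosen with earlier results of these data known. All 10 genes of the set are named, with their family members, and of each other list the genes called.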

Additional observations from a re-analysis of the deposited data

How the results depend on the processing

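Across 12 alternative settings, none of the 7 genes called changed direction, and 9 ratios kept their direction but lost the call (*Plin1* 3, *Cidec* 3, *Cidea* 2 and *Retn* 1). Settings that changed only a p-value or a filter kept the same ratios, and the series table holds those ratios rounded. A single array could not reverse a called gene, since a call needs the same direction on both. The direction could change with limma's ratios, loess on uncorrected signals or all probes averaged. Outside limma's own test, those settings kept the Feature Extraction p-values, so that only a sign change could lose a call. *Fabp4*, not called, changed sign from 0.05 to -0.01 with the mean over all its probes and to -0.02 from array 2 alone. The genes called higher, 215, numbered 50 with Feature Extraction p-values adjusted within each array, 107 with those p-values under 0.01, 40 with limma's adjusted p, 578 with limma's unadjusted p under 0.05, and 925 to 971 from 1 array alone. The genes called lower, 235, numbered 76, 127, 71, 583 and 722 to 910 in the same order. Of the set, the genes called higher went from 2 to 1 with p-values adjusted within each array (*Car3*) and with limma's adjusted p (*Car3*). Those called lower went from 5 to 3 with p-values adjusted within each array and to 3 with p-values under 0.01 (*Adipoq*, *Retn* and *Cfd*), and to 2 with limma's adjusted p (*Adipoq* and *Cfd*). A single array cannot lower these counts, since the call needs both. The median ratio of the set, -0.69, was -0.33 with limma's ratios and so in both limma tests, -0.36 with no background correction, -0.40 with no filter on dim probes, where *Lep* enters, and -0.45 (without array 1) to -0.80 (without array 2). The cause of these differences was not tested. The slide as a block could not be fitted, since both arrays lie on 1 slide. No paired analysis was possible because each array already sets both genotypes against each other in 1 ratio. *Lep* is limited by its signal, which was not above background.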

Other observations

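Of 12 genes of fast muscle fibres measured, none was called, and the median ratio was -0.05. On both arrays 4 were higher and 6 lower, where 29.2% and 25.3% of all genes were. Of 5 blood cell markers measured, none was called, and the median was -0.23, with a summed signal of 14549 and 14214 in WT and 12911 and 12950 in *Gde5* skKO muscle on arrays 1 and 2. Of 4 nerve markers measured, none was called, and the median was -0.09.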
